A study of Mus musculus with 6 samples.

Results

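The 10 immediate-early genes Egr1, Fos, Fosb, Jun, Junb, Jund, Atf3, Ier2, Klf2 and Klf4 were examined in RNA sequencing of mouse oocytes. They were taken by gene name from the deposited tables of counts and of FPKM (fragments per kilobase of gene length, scaled to library size), and make up 10 of 54532 genes listed there. All 10 passed the filter on low counts and were among the 18868 genes tested. The 3 AMH libraries are labelled as oocytes of C57BL/6J mice treated with AMH (anti-Müllerian hormone, a TGF-beta family hormone of granulosa cells). The protocol gives 300 ng of recombinant mouse AMH, made in E. coli, given each day by intraperitoneal injection to mice that were 21 days old at the start. The 3 control libraries are labelled as oocytes of C57BL/6J mice, and both groups have a labelled age of 6 to 7 weeks. The labels do not say whether controls were injected, how many oocytes or animals went into a library, at which meiotic stage oocytes were taken, or whether cumulus cells were removed. Nor do they say whether each library came from its own animals, so p-values here cover no more than library-to-library spread, part of which may be technical. AMH libraries were compared with control libraries, in a series whose title concerns oocyte quality and live birth under AMH treatment.

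Immediate-early genes are switched on within minutes of a stimulus, without new protein synthesis, because the factors that bind their promoters (serum response factor with its ternary complex partners, and CREB) are already present and are activated by kinases. Their mRNAs are mostly short-lived. Fos, Fosb, Jun, Junb and Jund encode subunits of AP-1, a dimeric transcription factor, and Atf3 encodes a related leucine zipper protein. Egr1, Klf2 and Klf4 encode zinc-finger transcription factors, and Ier2 a small nuclear protein. In the ovary, Egr1 is known for its induction by luteinising hormone in granulosa cells, while fully grown oocytes transcribe little and live on stored mRNA.

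Count totals per library were 66392859 to 69395450 in the AMH group and 69997949 to 72109080 in the control group. Oocyte markers were abundant in all 6 libraries but lower in AMH libraries: summed CPM (counts per 1000000 of the TMM-scaled library size) of 21 such genes, led by Gdf9, was 15934, 15410 and 26040 in AMH 1, 2 and 3, against 31399, 34802 and 26623 in controls 1, 2 and 3. Of these markers 15 lay below every control in every AMH library and 0 above (23.3% and 26.9% of all tested genes). The median log2 fold change of the 20 tested, AMH over control, was -0.83. By a chi-square statistic of counts over genes the closest pair of libraries was AMH 3 with control 3 (55.9 per degree of freedom, far above sampling noise), ahead of AMH 1 with AMH 2 (69.2) and control 1 with control 2 (66.0). AMH 3 thus stood apart from its own group, and so did control 3. Whether the labels of AMH 3 and control 3 are right was not tested, and every group mean and fold change here takes them as labelled. Results are given with and without these libraries where they change.

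At an adjusted p under 0.05, 0 of 18868 genes (0%) were called by edgeR's quasi-likelihood method over the whole table, with a lowest adjusted p of 0.116, and so 0 of the 10 immediate-early genes. At an unadjusted p under 0.05 it had 3 of the 10 higher and 0 lower in AMH libraries, where 20.2% of all tested genes were higher and 17.3% lower. DESeq2, run as an alternative, called 3 of the 10 higher and 0 lower at an adjusted p under 0.05, where it called 14.4% of 19811 genes higher and 4.86% lower. Limma-voom called 0 of the 10 and 0% of all genes. The log2 fold change was positive for 9 of the 10, as for 49.7% of all tested genes, and the median over the 10 was 1.55, against -0.01 over all tested genes. Only for Klf2 did every AMH library lie above every control, as 26.9% of tested genes did, and for 0 of the 10 did every AMH library lie below every control, as 23.3% did. Scaling changed the balance of the whole table: scaled to the oocyte markers, 6 of the 10 were higher at an unadjusted p under 0.05 beside 37.1% of tested genes higher and 0.0848% lower, and 2 of the 10 had AMH libraries above every control (39.4% of tested genes). With library size alone 2 of the 10 did (33.1%), and with a filter of at least 5 CPM 2 of 8 did (29.3%).

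**Figure D1:**
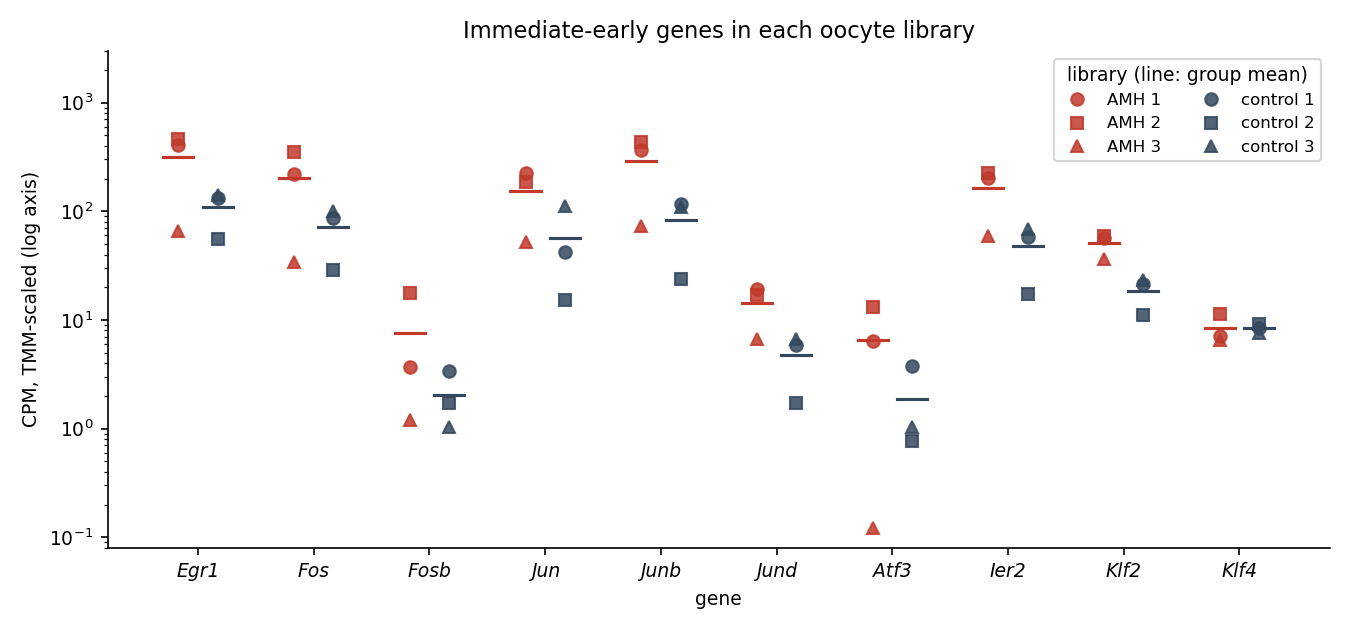
Level of each of the 10 genes in each of the 6 libraries, in CPM on a log axis, with the AMH libraries on the left and the control libraries on the right of each gene. The horizontal lines are group means over 3 libraries. AMH 1 and 2 lie above every control for every gene but Klf4, while AMH 3 lies above the controls for Klf2 alone.

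Among the Fos subunits of AP-1, Fos was high in AMH 1 and 2, Fosb stood out in AMH 2 alone, and both were low in AMH 3. Fos (chromosome 12, 85473890 to 85477273, ENSMUSG00000021250) had 222, 350.2 and 34.2 CPM in AMH 1, 2 and 3, against 87.2, 28.9 and 100.5 CPM in controls 1, 2 and 3. AMH 1 and 2 were above every control, and AMH 3 lay between control 2 and control 1, so the groups overlapped. The means were 202 ± 159 CPM in AMH and 72.2 ± 38.1 CPM in control libraries (SD, n = 3 each), and the log2 fold change was 1.49 ± 0.83 (SE, edgeR adjusted p = 0.203), or 0.81 without AMH 2. Fosb (chromosome 7, 19302696 to 19310051), a Fos relative that also has a truncated form, was far scarcer, with 3.67, 17.7 and 1.21 CPM in AMH 1, 2 and 3, against 3.40, 1.71 and 1.03 CPM in controls 1, 2 and 3. For Fosb, AMH 1 was 1.08 times the highest control and AMH 3 was below controls 1 and 2. The log2 fold change of Fosb was 1.88 ± 0.98 (SE, edgeR adjusted p = 0.184), and without AMH 2 it was 0.24.

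The Jun subunits, which dimerise with each other and with the Fos subunits, also had higher levels in AMH 1 and 2 than in AMH 3, with AMH 2 highest for Junb and AMH 1 highest for Jun and Jund. Junb (chromosome 8, 84974484 to 84978718, ENSMUSG00000052837), a partner that often restrains Jun, had 366, 429.8 and 73.3 CPM in AMH 1, 2 and 3, against 116, 23.8 and 109.7 CPM in controls 1, 2 and 3. The 2 high AMH libraries were at least 3.14 times the highest control, whereas AMH 3 was 0.629 times it. The log2 fold change of Junb was 1.797 ± 0.79 (SE, edgeR adjusted p = 0.143), from 289.6 ± 190.1 CPM in AMH and 83.3 ± 51.6 CPM in control libraries (SD, n = 3 each). Jun (chromosome 4, 95049034 to 95052222) had 225, 185 and 52.5 CPM in AMH 1, 2 and 3, against 41.8, 15.4 and 113 CPM in controls 1, 2 and 3. For Jun it was control 3 that came nearest to the AMH libraries, above AMH 3 and above the other controls. Its log2 fold change was 1.44 ± 0.80 (SE, edgeR adjusted p = 0.201) and 2.42 without control 3 (edgeR adjusted p = 0.0409). Jund (chromosome 8, 70698949 to 70700616), the Jun member least dependent on stimulation in most cells, had 19.4, 17.01 and 6.65 CPM in AMH 1, 2 and 3, against 5.89, 1.73 and 6.73 CPM in controls 1, 2 and 3. AMH 3 was level with control 3, at 0.988 times it, and the log2 fold change was 1.59 ± 0.61 (SE, edgeR adjusted p = 0.122).

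The zinc-finger gene Egr1 had the highest group mean in CPM of the 10 in both groups. Egr1 (chromosome 18, 34859823 to 34864984, ENSMUSG00000038418) had 411, 461 and 65.5 CPM in AMH 1, 2 and 3, against 132, 56.1 and 139.8 CPM in controls 1, 2 and 3. AMH 1 and 2 were at least 2.94 times the highest control, and AMH 3 lay between control 2 and control 1. The means were 313 ± 216 CPM in AMH and 109 ± 46.1 CPM in control libraries (SD, n = 3 each), with a log2 fold change of 1.52 ± 0.71 (SE, edgeR adjusted p = 0.156).

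Ier2 and Atf3 differed in how far AMH 3 fell behind. Ier2 (chromosome 8, 84661331 to 84662852) had 204, 224 and 58.8 CPM in AMH 1, 2 and 3, against 57.9, 17.2 and 69.0 CPM in controls 1, 2 and 3. AMH 3 lay between controls 1 and 3, and the log2 fold change was 1.76 ± 0.66 (SE, edgeR adjusted p = 0.120). Atf3 (chromosome 1, 191170296 to 191218039), a stress-induced repressor and activator, had 6.41, 13.1 and 0.122 CPM in AMH 1, 2 and 3, against 3.77, 0.764 and 1.03 CPM in controls 1, 2 and 3. The AMH 3 value rests on 8 counts, beside 520 in AMH 1 and 1000 in AMH 2, and lay below every control. The spread of Atf3 within the AMH group was thus the widest of the 10, and its log2 fold change of 1.82 ± 1.33 had an edgeR adjusted p of 0.307. It was 0.80 without AMH 2 and 2.85 without control 1, and 0.68 in limma-voom.

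The Krüppel-like factors parted from the others in opposite ways. Klf2 (chromosome 8, 72319033 to 72321656, ENSMUSG00000055148), known as a flow-responsive factor of endothelium and a quiescence factor of lymphocytes, had 56.8, 59.2 and 36.7 CPM in AMH 1, 2 and 3, against 21.3, 11.0 and 23.5 CPM in controls 1, 2 and 3. Even AMH 3 was 1.56 times the highest control, and the AMH libraries spanned a 1.62-fold range, against 10.2-fold for Fos. The means were 50.9 ± 12.4 CPM in AMH and 18.6 ± 6.69 CPM in control libraries (SD, n = 3 each), with a log2 fold change of 1.45 ± 0.34 (SE, edgeR adjusted p = 0.116). Klf4 (chromosome 4, 55527143 to 55532466), a factor of epithelial differentiation and of reprogramming to pluripotency, had 7.15, 11.4 and 6.51 CPM in AMH 1, 2 and 3, against 8.42, 9.24 and 7.52 CPM in controls 1, 2 and 3. Its groups overlapped throughout and its log2 fold change was -0.01 ± 0.30 (SE, edgeR adjusted p = 0.984), and it was 0.28 with library size alone and 0.82 scaled to the oocyte markers.

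**Figure D2:**
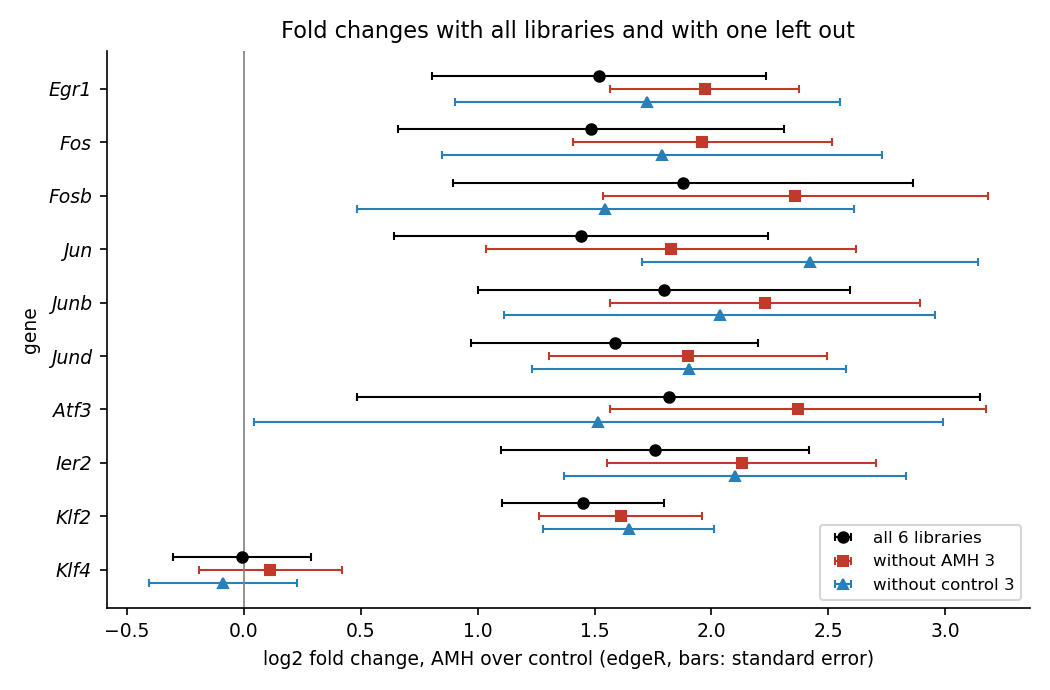
The log2 fold change of each gene, AMH over control, from edgeR, with bars of 1 standard error, for all 6 libraries and with AMH 3 or control 3 left out. All genes but Klf4 have positive values in the 3 fits, and the Jun value moves most when control 3 is left out, to 2.42.

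Leaving out single libraries changed the calls. Without AMH 3, both remaining AMH libraries lay above every control for 9 of the 10 genes, as they did for 36.7% of tested genes, and 8 of the 10 had an unadjusted p under 0.05 with a higher value (17.1% of tested genes). EdgeR still called 0 of the 10 without AMH 3, where it called 8.18% of tested genes (285 higher and 1322 lower of 19638). The edgeR adjusted p was then 0.0507 for Egr1 and 0.0553 for Klf2. DESeq2 without AMH 3 called 8 of the 10 higher, where it called 16.7% of genes higher. Without control 3, edgeR called Klf2 (adjusted p = 0.0223) and Jun (adjusted p = 0.0409), where it called 26.8% of 19770 genes higher, and 4 of the 10 had every AMH library above the remaining controls (39.2% of tested genes). DESeq2 without control 3 called 5 of the 10 higher, where it called 27.3% of genes higher. In the full set the 3 DESeq2 calls were Klf2 (adjusted p = 0.00888), Ier2 (0.0422) and Jund (0.0479). DESeq2 called 0 of the 10 without AMH 1 (0.762% of genes higher), without AMH 2 (1.35%) or without control 1 (2.27%), and without control 2 it called Klf2 alone (adjusted p = 0.0180, with 7.29% of genes higher). The calls thus turned on which library was left out.

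The order of the libraries was similar, though not the same, for most of the 10 genes. AMH 1 and AMH 2 were the 2 highest libraries for 9 of the 10, against 29.8% of tested genes, and control 2 was the lowest of the 6 libraries for 7. Control 2 was the lowest control for 8 of the 10 (42.9% of tested genes). AMH 3 was within the control range for 7 of the 10 (33.7% of tested genes), above it for Klf2, and below it for Atf3 and Klf4. Summed over the 10 genes the level was 1521, 1769 and 336 CPM in AMH 1, 2 and 3, against 478, 166 and 572 CPM in controls 1, 2 and 3. In raw counts the 10 genes held 0.178%, 0.203% and 0.0331% of all counts in AMH 1, 2 and 3, against 0.0427%, 0.0148% and 0.0538% in controls 1, 2 and 3.

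**Figure D3:**
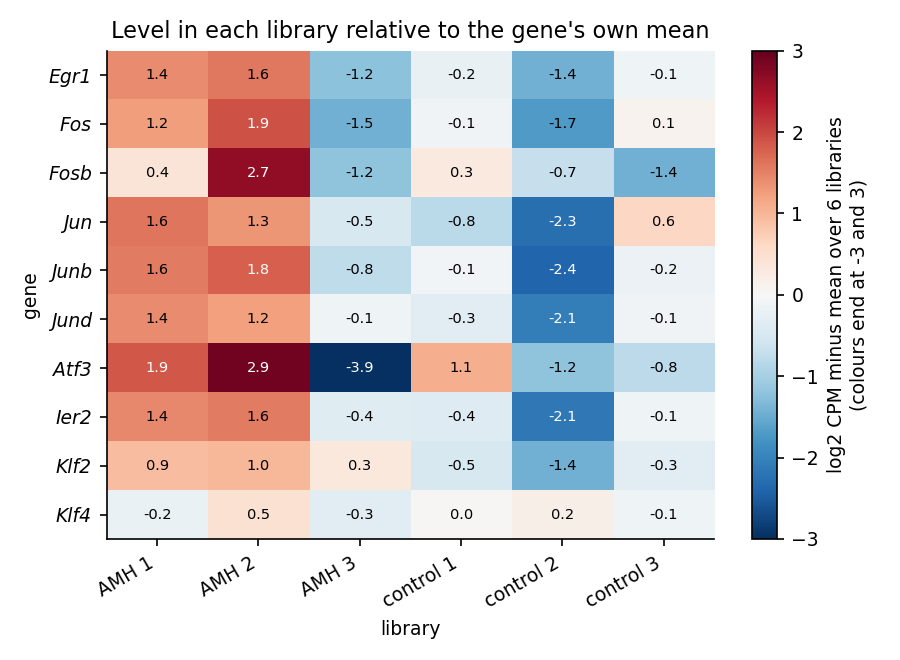
Level of each gene in each library as log2 CPM minus the gene's mean over the 6 libraries, with AMH libraries in the left 3 columns and control libraries in the right 3. The columns of AMH 1 and 2 are above the gene mean for every gene but Klf4, for which AMH 1 is at -0.20, and control 2 is below it for every gene but Klf4.

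Spread within the groups was wide for most of the 10. The SD of log2 CPM over the 3 AMH libraries had a median of 1.27 over the 10 genes, against 0.32 over all tested genes. Over the 3 control libraries the median was 1.03 for the 10 genes and 0.39 for all tested genes. Within the AMH group Atf3 had an SD of 3.46, Fosb 1.93, Fos 1.78 and Egr1 1.58, whereas Klf2 had 0.38 and Klf4 0.43. Klf2 thus had the narrowest AMH spread of the 10 genes as well as the smallest p.

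Levels between genes were compared in FPKM, the authors' values per gene length. Junb ranked first in both groups, with 124 ± 82.3 FPKM in AMH and 34.7 ± 21.5 FPKM in control libraries (SD, n = 3 each). Ier2 followed with 105 ± 59.4 FPKM in AMH and 30.2 ± 17 FPKM in control libraries, then Fos with 84.5 ± 66.9 FPKM in AMH and 29.3 ± 15.4 FPKM in control libraries. Egr1, Jun, Klf2 and Jund came next in both groups. Neighbours from Junb down to Klf2 kept their order in only 2 of 3 libraries in each group, so adjacent genes in that order do not differ beyond their spread. Genes farther apart did differ, Junb and Ier2 exceeding Klf2 in all 6 libraries, and Klf2 exceeded Jund in 3 of 3 libraries of each group. At the low end were Klf4 with 2.67 ± 0.888 FPKM in AMH and 2.64 ± 0.291 FPKM in control libraries, Atf3 with 2.99 ± 2.96 FPKM in AMH and 0.829 ± 0.751 FPKM in control libraries, and Fosb with 1.18 ± 1.41 FPKM in AMH and 0.315 ± 0.191 FPKM in control libraries.

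The make-up of the AP-1 families by FPKM was similar in the 2 groups. Their sums were higher in AMH 1 and 2 than in any control, while AMH 3 lay within the control range. Junb made up 66.7 ± 6.20% of Jun family FPKM in AMH and 64.6 ± 10.3% in control libraries, Jun 27.8 ± 4.51% in AMH and 29.9 ± 10.6% in control libraries, and Jund 5.49 ± 1.90% in AMH and 5.43 ± 0.893% in control libraries (SD, n = 3 each). Fos made up 98.7 ± 0.625% of the FPKM of Fos and Fosb in AMH and 98.7 ± 0.906% in control libraries. The Jun family sum was 238, 251 and 49.1 FPKM in AMH 1, 2 and 3, against 65.1, 15.6 and 82.3 FPKM in controls 1, 2 and 3. Within the Krüppel-like pair the ratio of Klf2 to Klf4 FPKM was 13.1, 8.59 and 9.29 in AMH 1, 2 and 3, against 4.18, 1.97 and 5.17 in controls 1, 2 and 3. The groups did not overlap in this ratio, nor did they for Klf2 by itself, so it is not a separate result. In FPKM the ratios of Fos to Jun, Fos to Junb, Fosb to Fos, Egr1 to Fos and Junb to Ier2 overlapped between the groups.

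Most of the 10 genes have a short deposited gene length. In GENCODE M21, on the build of the files, 3 of the 10 (Jun, Jund and Ier2) have a single exon in every transcript, against 2.36% of tested protein-coding genes. The median gene length was 2326.5 bases for the 10 genes and 4250.0 bases for tested protein-coding genes. Fosb (6243 bases) and Egr1 (4484 bases) were above the latter. This length is not the span on the chromosome: Atf3 has a length of 2154 bases and spans 191170296 to 191218039. An opposite-strand gene overlaps Jun (Junos, 188 counts summed over the 6 libraries) and Junb (Prdx2, 142513 counts), and the strand setting of the counting is unknown here, so part of the Junb count could not be told apart from Prdx2. Jund and Atf3 overlap small genes with 0 counts.

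RefSeq promoter windows (GRCm38.p6, 250 bases before to 50 after the start) were found for 8 of the 10 genes, and not for Egr1 and Ier2. The RefSeq start lies 1210 bases from the deposited gene start for Jund and 34706 bases from it for Atf3. Counts over the 8 windows include both, so they may not describe the start of the gene as deposited. The windows of Fos, Junb and Klf2, which had the higher AMH means, and of Klf4, which did not, are shown. They were picked because all 4 hold the letters TGACG, the core of the cAMP response element bound by CREB. The windows are chr12:85473640-85473939 for Fos and chr8:72318812-72319111 for Klf2 on the plus strand, and chr8:84978699-84978998 for Junb and chr4:55532426-55532725 for Klf4 on the minus strand. Each is written 5′ to 3′ along its gene, with that core, on either strand, and the TATA box letters TATAAA in capitals.
Fos: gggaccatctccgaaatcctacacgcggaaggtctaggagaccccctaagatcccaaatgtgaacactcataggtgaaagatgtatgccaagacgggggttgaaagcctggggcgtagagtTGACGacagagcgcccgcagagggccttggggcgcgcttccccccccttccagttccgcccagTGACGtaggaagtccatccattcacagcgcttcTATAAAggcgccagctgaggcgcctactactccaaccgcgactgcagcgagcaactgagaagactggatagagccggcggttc
Junb: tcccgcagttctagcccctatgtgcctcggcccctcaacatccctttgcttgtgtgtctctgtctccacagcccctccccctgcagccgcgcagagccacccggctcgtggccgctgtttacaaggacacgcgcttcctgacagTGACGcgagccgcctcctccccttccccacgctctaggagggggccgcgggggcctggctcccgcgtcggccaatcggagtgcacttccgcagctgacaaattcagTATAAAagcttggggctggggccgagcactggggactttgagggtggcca
Klf2: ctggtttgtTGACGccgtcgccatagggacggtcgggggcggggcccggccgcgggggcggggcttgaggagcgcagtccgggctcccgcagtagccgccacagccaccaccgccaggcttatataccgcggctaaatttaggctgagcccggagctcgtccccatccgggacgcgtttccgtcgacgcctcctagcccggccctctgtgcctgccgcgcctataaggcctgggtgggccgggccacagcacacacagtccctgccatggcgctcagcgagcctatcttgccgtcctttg
Klf4: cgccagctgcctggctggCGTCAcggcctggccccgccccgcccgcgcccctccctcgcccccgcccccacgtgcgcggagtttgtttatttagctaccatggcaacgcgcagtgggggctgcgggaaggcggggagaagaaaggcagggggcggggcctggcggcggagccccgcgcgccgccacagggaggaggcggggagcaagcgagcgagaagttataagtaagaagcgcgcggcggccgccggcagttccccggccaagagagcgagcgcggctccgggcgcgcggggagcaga
Searched on both strands, TGACG was in 6 of the 8 windows (Atf3, Fos, Fosb, Junb, Klf2 and Klf4), as in 20.8% of 32817 RefSeq windows. In Fos it begins 129 and 66 bases before the start, with TATAAA 33 bases before the start, and in Junb it begins 106 bases before. In Klf2 and Klf4 it lies farther off, 241 and 232 bases before the start. TATAAA was in 2 of the 8 windows and in 13.6% of all windows. In Junb TATAAA begins at the RefSeq start itself, which lies 30 bases from the deposited gene start. The full element TGACGTCA, which contains TGACG, the AP-1 element TGACTCA and the serum response element were each in 0 of the 8 windows, and in 1.79%, 5.2% and 1.63% of all windows. The search took set letter patterns, so variant elements and elements outside the windows would be missed. The motifs were chosen with the sequences in view, the windows are short, and a match is a description of letters, since no binding was measured here. TGACG was present in the window of Klf4, with a log2 fold change of -0.01. It was absent from those of Jun and Jund, with log2 fold changes of 1.44 and 1.59. Whether these letters bear on the fold changes was not tested.

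Other genes of the immediate-early response and its relatives were taken from fixed lists. Of 38 other immediate-early genes tested, edgeR called 0 in either direction, 11 had all AMH values above all control values and 4 had them below, beside the 26.9% and 23.3% of all tested genes. Their median log2 fold change was 1.30, with 29 positive and 9 negative, and AMH 1 and 2 were the 2 highest libraries for 22 of the 38. Gadd45b, a stress-response gene of growth arrest, had 13.9, 16.5 and 13.3 CPM in AMH 1, 2 and 3, against 4.19, 2.96 and 7.37 CPM in controls 1, 2 and 3. Socs3, a feedback inhibitor of cytokine signalling, had 102, 132 and 28.1 CPM in AMH 1, 2 and 3, against 25.4, 10.3 and 16.1 CPM in controls 1, 2 and 3. For both genes the AMH libraries lay above the controls, with AMH 3 close behind AMH 1 for Gadd45b and far behind for Socs3, and with an edgeR adjusted p of 0.116 each. Genes of the list that went the other way, named after their values were seen, were the phosphatase gene Dusp1, with 379, 335 and 359 CPM in AMH 1, 2 and 3, against 436, 433 and 397 CPM in controls 1, 2 and 3, and Ppp1r15a, Errfi1 and Plk3, all 4 with every AMH library below every control.

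Among 15 AP-1 relatives 5 lay above and 1 below every control (26.9% and 23.3% of all tested genes). Their median log2 fold change was 0.91. Fosl2, the Fos relative Fra-2, had 67.2, 76.3 and 44.4 CPM in AMH 1, 2 and 3, against 16.1, 3.40 and 24.4 CPM in controls 1, 2 and 3. Its AMH 3 value stayed above every control, unlike that of Fos. Atf2, a stored partner of Jun, had 108, 129 and 136 CPM in AMH 1, 2 and 3, against 195, 189 and 160.5 CPM in controls 1, 2 and 3, with every AMH library below every control. EdgeR called 0 of the list, and Fosl2 and Atf2 each had an adjusted p of 0.116.

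Of 4 tested EGR and NAB genes 0 were called and 0 had groups that did not overlap. Egr3 had 3.36, 7.04 and 1.04 CPM in AMH 1, 2 and 3, against 0.745, 0.218 and 2.11 CPM in controls 1, 2 and 3, the same order of libraries as Ier2. Nab1, a corepressor that binds EGR proteins, had 94.4, 59.6 and 94.9 CPM in AMH 1, 2 and 3, against 99.8, 89.4 and 112 CPM in controls 1, 2 and 3. Of 10 other Krüppel-like factors tested 0 were called, and the median log2 fold change was 0.76. Of these 10, 2 lay above and 1 below every control (26.9% and 23.3% of all tested genes). Klf11, a TGF-beta-inducible member, had 83.6, 94.6 and 103 CPM in AMH 1, 2 and 3, against 133, 138 and 134 CPM in controls 1, 2 and 3. Klf5 was scarce, with 2.95, 1.07 and 0.671 CPM in AMH 1, 2 and 3, against 0.264, 0.452 and 0.622 CPM in controls 1, 2 and 3.

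The upstream list of 27 serum response factor, CREB and MAP kinase genes was mixed, with a median log2 fold change of 0.25, 6 members above and 7 below every control, and 0 called by edgeR. Over all tested genes 26.9% lay above and 23.3% below every control. Elk4, a ternary complex factor of serum response elements, had 44.3, 54.4 and 61.0 CPM in AMH 1, 2 and 3, against 88.9, 87.1 and 81.8 CPM in controls 1, 2 and 3. Rps6ka5, a kinase of CREB and histone H3 at immediate-early promoters, had 40.4, 45.5 and 56.7 CPM in AMH 1, 2 and 3, against 86.5, 84.4 and 67.9 CPM in controls 1, 2 and 3. Elk4 and Rps6ka5 had lower values in every AMH library than in any control, with an edgeR adjusted p of 0.116 each. Of 11 heat-shock genes 2 lay above and 0 below every control. They were Hspa8, a cytosolic chaperone, with 788, 830.0 and 637 CPM in AMH 1, 2 and 3, against 212, 156 and 379 CPM in controls 1, 2 and 3, and Hspb1, with 23.2, 11.9 and 14.0 CPM in AMH 1, 2 and 3, against 9.21, 11.2 and 9.15 CPM in controls 1, 2 and 3.

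Markers of other cell types moved with some of these values. In bulk libraries fewer cells of a type and less RNA per cell cannot be told apart. Summed CPM of 8 oviduct epithelium markers was 728, 419 and 174 in AMH 1, 2 and 3, against 79.0, 32.8 and 195 in controls 1, 2 and 3, which shares with the immediate-early sum its 2 highest libraries and its lowest. Of those 8 markers, led by Ovgp1, 7 had a higher AMH mean and 5 lay above every control (26.9% of all tested genes). The 10 macrophage markers summed to 67.2, 103 and 75.2 CPM in AMH 1, 2 and 3, against 19.98, 14.0 and 30.2 CPM in controls 1, 2 and 3, with 9 of 10 higher on average, 7 above every control and Lyz2 the most abundant. The 7 red cell markers summed to 357, 29.9 and 22.8 CPM in AMH 1, 2 and 3, against 1.88, 1.11 and 5.64 CPM in controls 1, 2 and 3, all 7 with a higher AMH mean and Hba-a1 the most abundant. The red cell sum likewise shares its 2 highest libraries and its lowest with the immediate-early sum. Both the oviduct and the red cell sum were higher in AMH 1 than in AMH 2, unlike the immediate-early sum.

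The 20 cumulus and granulosa markers summed to 4333, 3526 and 4269 CPM in AMH 1, 2 and 3, against 1396, 1120 and 4490 CPM in controls 1, 2 and 3. Of the 20, 17 had a higher AMH mean, and the median log2 fold change was 1.18. Of these markers 7 lay above every control and 1 below (26.9% and 23.3% of all tested genes). In the summed level, led by Serpine2, AMH 3 and control 3 were as high as AMH 1 and 2, while their immediate-early sums of 336 CPM in AMH 3 and 572 CPM in control 3 were below those of AMH 1 and 2. With the log2 sum of these markers as a covariate in edgeR, the median log2 fold change of the 10 genes was 1.197, against 1.55 without it. Under that covariate the value fell for Egr1 (to 1.24), Fos (1.16), Jun (0.64), Junb (1.44), Jund (1.11), Ier2 (1.31) and Klf2 (1.14). It rose for Fosb (to 2.81 ± 1.21, SE), Atf3 (2.53 ± 1.79, SE) and Klf4 (0.19). Endothelial markers summed lower in every AMH library, with 129, 150.2 and 214 CPM in AMH 1, 2 and 3, against 263, 277 and 231 CPM in controls 1, 2 and 3, and most of that sum was Pecam1. Of the 11 endothelial markers, 3 lay below every control in every AMH library (Pecam1, Kdr and Flt1) and 3 lay above (Cdh5, Eng and Egfl7), the side on which Klf2 lay. Cdh5 reached at most 2.64 CPM, Emcn was at 0 in all 6 libraries, and 5 of the 11, Eng and Egfl7 among them, were below 1 CPM throughout. The 9 stroma and theca markers summed to 37.6, 11.7 and 10.1 CPM in AMH 1, 2 and 3, against 5.85, 4.93 and 34.0 CPM in controls 1, 2 and 3. Two-sided exact permutation tests of the 7 marker sums gave p = 0.1, the smallest that 3 against 3 libraries allow, for oocyte, macrophage, endothelial and red cell markers (adjusted p = 0.175 over 7 lists), 0.2 for oviduct, 0.4 for cumulus and 0.5 for stroma markers. The part of these cell types in the immediate-early values was not tested.

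**Figure D4:**
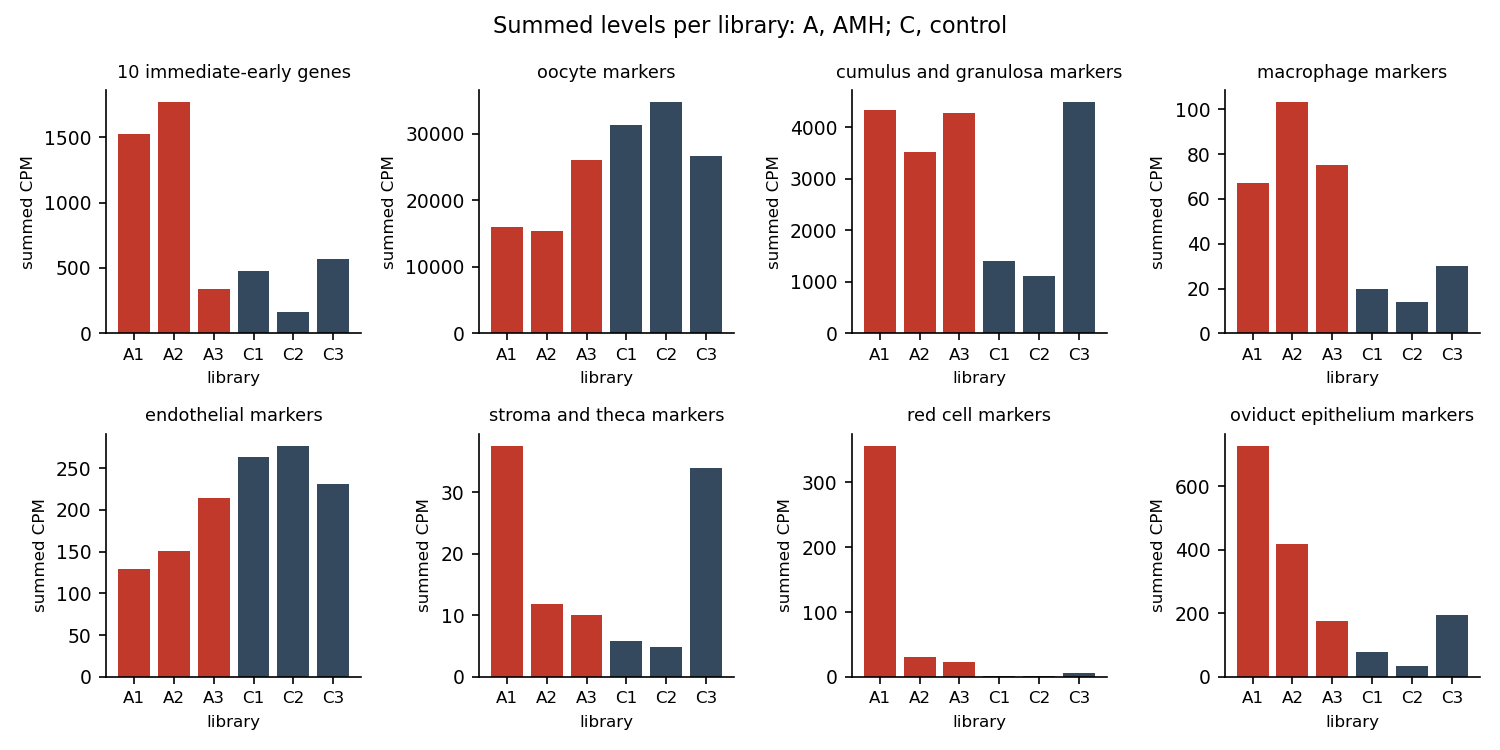
Summed CPM per library of the 10 immediate-early genes and of 7 marker lists, as bars from 0, with AMH libraries (A1 to A3) on the left and control libraries (C1 to C3) on the right of each panel. The immediate-early sum is highest in AMH 1 and 2 (1521 and 1769 CPM) and low in AMH 3 (336 CPM), whereas the cumulus and granulosa sum is high in AMH 3 and control 3 too (4269 and 4490 CPM).

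Outside the fixed lists, the genes whose pattern was most like the mean standardised log2 CPM of the 10 were sought among 10020 protein-coding genes of at least 5 CPM, by Pearson correlation over the 6 libraries. Given as a description, the 5 highest were Gm13889 (r = 0.987), Plekhg4 (0.981), Rlf (0.978), Tspyl2 (0.977) and Urb2 (0.976). Gm13889 had 10.4, 14.2 and 2.00 CPM in AMH 1, 2 and 3, against 4.76, 1.14 and 3.02 CPM in controls 1, 2 and 3. The libraries share depth differences and cell content, and 49 of the 10020 genes (0.489%) had r of at least 0.95.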

How the data were processed

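RNA of mouse oocytes was measured in 3 AMH and 3 control libraries. Per the labels' protocols, a SMART v4 kit was used on frozen oocytes and mRNA was captured on poly-T beads. The counts deposited by the authors are whole numbers for each Ensembl gene. The submitters' processing notes name featureCounts 1.5.0-p3, HISAT2 2.0.5 and also DESeq2 1.20.0, with GRCm38 or mm10 as the build. What each tool did, any filter and the use of strand are not given there. The deposited FPKM values equal count over gene length and 1 effective size per library, 1.05 to 1.18 of the count total in AMH and 0.924 to 0.997 in control libraries.

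Counts were tested with edgeR 4.0.16 (R 4.3.3; quasi-likelihood, robust, TMM, filterByExpr, group alone), adjusted by Benjamini-Hochberg over all genes tested, on the whole table. Called means an adjusted p under 0.05. Standard errors come from the F statistic. Alternatives were DESeq2 1.42.0, limma-voom and limma 3.58.1 on log2(FPKM + 1) or log2(FPKM + 0.1) with more than 1 FPKM in 3 libraries, different scalings, different filters, a replicate block, a cumulus marker covariate and each library left out; DESeq2 with each library left out was chosen after seeing the data. The tests were tried on simulated counts. The 10 genes, the lists and the motifs were chosen with earlier results of these data known. Named were all 10 genes, from each list those called or else the 2 of smallest p with at least 1 CPM, the most abundant marker per list, and the 5 genes of most like pattern. File positions were the same in GENCODE M21 for 98.1% of genes. No column was left out.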

Additional observations from a re-analysis of the deposited data

How the results depend on the processing

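The median log2 fold change of the 10 genes was positive under every alternative run, from 1.18 to 1.97 in edgeR with 1 library left out and 1.16 to 2.06 in DESeq2 with 1 library left out. With library size only it was 1.87 (0.26 over all tested genes), by upper quartile 1.35 (-0.23 over all) and scaled to the oocyte marker list 2.40 (0.74 over all). EdgeR called 0 of 18868 genes, and 0 to 7513 genes and 0 to 2 of the 10 with 1 library left out: 7513 genes without control 3 (5291 higher and 2222 lower), 1607 without AMH 3 (285 higher and 1322 lower) and 0 without any other library. DESeq2 called 3814 genes and 3 of the 10, and with 1 library left out 154 to 9261 genes and 0 to 8 of the 10: leaving out AMH 1, 2 or 3 gave 154, 269 or 6138 genes, and leaving out control 1, 2 or 3 gave 476, 1377 or 9261 genes. The number of genes with every AMH library above every control was 1 of 10 (26.9% of tested genes). It was 2 with library size only (33.1%), 2 with scaling to the oocyte marker list (39.4%) and 2 of 8 with at least 5 CPM in 3 libraries (29.3%). With 1 library left out it was 1 to 9, with 9 without AMH 3 (36.7%) and 4 without control 3 (39.2%). Without AMH 2 it was 1, and 1 other gene had its AMH libraries below every control. The log2 fold change of Klf4 was -0.0081, but 0.28 with library size only, 0.013 with RLE scaling, 0.82 with oocyte marker scaling, 0.031 with at least 5 CPM in 3 libraries, 0.016 in DESeq2 and 0.19 with the cumulus covariate. With 1 library left out it ran from -0.31 to 0.11 in edgeR, and in DESeq2 it was 0.11 without AMH 1, 0.21 without AMH 3, 0.014 when control 1 and 0.027 when control 2 was left out, but -0.28 without AMH 2 and -0.06 without control 3. The cause of these changes was not tested.

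Replicate numbers in the labels did not pair the libraries (correlations of same-numbered deviations 0.06, -0.10 and -0.25), and with the replicate block edgeR called 0 genes and 0 of the 10, with a median of 1.38. Low counts limit Atf3 and Fosb most, with the lowest at 8 in AMH 3 for Atf3 and 68 in control 3 for Fosb. Fosb was not tested in FPKM with the filter, and Fosb and Atf3 not at 5 CPM.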
